A study of Mus musculus with 98 samples.

Results

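Prss16, Ctsl, Ly75, Cd83, Slc46a2, Cd274 and Tbata are 7 genes listed together for their known or proposed place in antigen processing and surface regulation of the thymic cortical epithelium. The list was drawn up by name, with earlier results of these data known, and all 7 were found among 39179 genes of the bulk table and among 20760 genes of the newborn single-cell table. Their transcripts were read in 2 ways in mouse thymic stroma. RNA of sorted populations from WT mice was sequenced in bulk at P0 and 4 weeks of age, with 6 libraries for each population and age, among them cortical thymic epithelial cells (cTEC) and medullary thymic epithelial cells (mTEC) at both ages, and mTEChi and mTEClo at 4 weeks. Single Ter119-CD45- cells, fixed with RNAprotect, were captured at birth from 3 Tbx1+/-Crkl+/- mice, which carry 1 germline lacZ allele of Tbx1 and 1 null allele of Crkl in every cell, and from 3 WT littermates. A further set of WT cells, sorted fresh as Ter119-CD45-EpCAM- and so depleted of epithelium, came from E12.5 and E13.5 (1 library each) and from E16.5, P0 and W4 (2 libraries each). The nonepithelial stroma of both single-cell sets, which holds fibroblasts, mural, endothelial and other cells, is called NETS.

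The thymic cortex is where developing T cells are first tested for binding to self-peptides on MHC molecules, and cTEC make those peptides with a set of proteases that differs from that of other antigen-presenting cells. Prss16 encodes the thymus-specific serine protease and Ctsl the lysosomal cysteine protease cathepsin L, both of which act in the MHC class II pathway of cTEC and shape the CD4+ T cell repertoire. Ly75 encodes DEC-205 (CD205), an endocytic receptor of cTEC and dendritic cells. Cd83 encodes a membrane protein that limits the removal of MHC class II from the surface of cTEC, and Cd274 encodes PD-L1, the ligand of the inhibitory receptor PD-1. Slc46a2 encodes a membrane transporter of the folate transporter family that is abundant in thymic stroma, and Tbata encodes a thymus, brain and testes associated protein also known as Spatial.

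Prss16, Cd83 and Ctsl lie on chromosome 13 of GRCm38.p6 in the RefSeq annotation, with Prss16 (ENSMUSG00000006179) at chr13:22002176-22009741, Cd83 (ENSMUSG00000015396) at chr13:43785112-43803133 and Ctsl (ENSMUSG00000021477) at chr13:64361890-64370772. The others are Ly75 (ENSMUSG00000026980) at chr2:60292103-60383273, Slc46a2 (ENSMUSG00000028386) at chr4:59905899-59915056, Tbata (ENSMUSG00000020096) at chr10:61171964-61188841 and Cd274 (ENSMUSG00000016496) at chr19:29362107-29388095. RefSeq promoters (GRCm38.p6) were matched for 5 of the 7, and the entries for Prss16 and Cd83 were not used here. In the 250 bases before the start that the promoter table gives, which lies within the gene span above for Cd274 and Ctsl and at its edge for the others, CG dinucleotides numbered 17 in Ly75, 11 in Cd274, 7 in Ctsl, 6 in Slc46a2 and 1 in Tbata, against a median of 6 (quartiles 2 and 16) over 32851 promoters of the same length. The genes with the most and the fewest CG are shown because both are higher in cTEC below while their start regions differ in base composition, the first at chr2:60383274-60383523 on the minus strand and the second at chr10:61171714-61171963 on the plus strand, with CG in capitals.
Ly75: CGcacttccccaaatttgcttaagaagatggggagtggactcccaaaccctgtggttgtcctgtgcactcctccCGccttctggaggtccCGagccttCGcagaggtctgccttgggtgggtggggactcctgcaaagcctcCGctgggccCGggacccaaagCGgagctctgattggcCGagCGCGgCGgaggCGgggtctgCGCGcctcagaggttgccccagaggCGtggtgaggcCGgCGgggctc
Tbata: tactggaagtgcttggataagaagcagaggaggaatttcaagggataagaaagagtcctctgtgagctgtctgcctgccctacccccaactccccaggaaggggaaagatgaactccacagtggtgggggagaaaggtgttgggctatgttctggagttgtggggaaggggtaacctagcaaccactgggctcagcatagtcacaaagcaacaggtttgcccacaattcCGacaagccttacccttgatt
As few CG as in Tbata or fewer were found in 18.8% of promoters, and as few as in Ly75 or fewer in 78.3%. GACGC, the core bound by the forkhead factor FOXN1, was searched on both strands (it contains a CG) and was present in 22.6% of all promoters and in 0 of these 5, which says only that these letters are not in these windows.

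The TEC libraries in bulk held 5785352 to 14454727 counts over genes, and the newborn single-cell libraries 4978011 to 31418527 UMIs in 1687 to 5661 cells. Nothing in the labels says that the bulk libraries of a group came from separate mice, so the p-values below measure the spread between libraries, which may be partly technical. The sorted cTEC had summed levels of 5 cortical markers of 2373 to 4296 CPM (counts scaled to the total of gene counts in a library) at P0 and 7340 to 12178 CPM at 4 weeks, against 533 to 852 and 692 to 1110 CPM in mTEC. One bulk library labelled gp38+CD26+ (fibroblasts) at 4 weeks held only 25702 counts and 11478 CPM of Prss16, where the other 5 held 0 to 72.5 CPM, so values of that group are given without it. In the single-cell sets, 88 newborn cells and 310 cells of the age series shared a barcode with another library. Crkl, 1 of the 2 altered genes, was at 23.6 to 26.9 CPM in the 3 Tbx1+/-Crkl+/- libraries and 18.4 to 25.1 CPM in the 3 WT libraries, and Tbx1 had 0, 0 and 8 UMIs against 13, 6 and 19. Since a 3' tag can lie outside the altered part of an allele, these levels do not check the genotype labels.

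All 7 genes were higher in cTEC than in mTEC at birth and at 4 weeks, and for each of them the 6 cTEC libraries did not overlap the 6 mTEC libraries at either age. Over all genes tested the libraries did not overlap for 9.04% higher and 18.6% lower in cTEC at P0, and for 8.10% higher and 9.42% lower at 4 weeks. Mean CPM differed most for Ly75 at P0 (24.5 times, with Prss16 at 22.7 times) and for Prss16 at 4 weeks (338 times), and the immune inhibitory ligand Cd274 was among the least different, by 4.12 and 2.505 times. Over 18847 genes tested with edgeR, 8.28% were higher and 29.2% lower in cTEC at P0, and 11.5% higher and 26.4% lower at 4 weeks (adjusted p under 0.05). The median log2 fold change of the 7 genes was 2.85 at P0 and 3.71 at 4 weeks, against -0.35 and -0.24 over all genes tested. In bulk RNA, fewer cells of a type and less RNA per cell cannot be told apart.

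Prss16, the serine protease, was at 8284, 12161 and 17476 CPM (lowest, median and highest of 6) in cTEC at P0 and at 11981, 14971 and 20003 CPM in cTEC at 4 weeks. In mTEC it was at 259, 529 and 955 CPM at P0 and at 17.6, 48.8 and 58.5 CPM at 4 weeks. The log2 fold change of cTEC over mTEC was 4.46 ± 0.34 (SE, n = 6, edgeR, adjusted p = 1.5e-12) at P0 and 8.32 ± 0.40 at 4 weeks. At 4 weeks only 2 of the 18847 genes had a smaller p than Prss16 in that comparison. Ctsl, the lysosomal cysteine protease, was at 2418, 2995 and 3725 CPM in cTEC at P0 and 2844, 3312 and 3814 CPM at 4 weeks. In mTEC, Ctsl reached 149.04, 448 and 623 CPM at P0 and 103.2, 148.5 and 291 CPM at 4 weeks. Both proteases were therefore clearly separate between the lineages, with log2 fold changes for Ctsl of 2.85 ± 0.28 at P0 and 4.26 ± 0.30 at 4 weeks.

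Ly75, the endocytic receptor, was at 268, 461 and 512 CPM in cTEC at P0 and 538, 620 and 968 CPM at 4 weeks. Its mTEC libraries spanned 0, 17.7 and 37.4 CPM at P0 and 14.6, 54.97 and 84.2 CPM at 4 weeks, and the library at 0 is the only TEC library in which a member was not counted. The log2 fold change of Ly75 was 4.57 ± 0.62 (edgeR, adjusted p = 4.9e-07) at P0 and 3.71 ± 0.60 at 4 weeks, so that its SE was the widest of the 7 genes. Cd83, which holds MHC class II at the surface, was at 1877, 2171 and 2662 CPM in cTEC at P0 and 3500, 5352 and 8718 CPM at 4 weeks. In mTEC, Cd83 was at 175.01, 215 and 406 CPM and then 102.2, 132.5 and 217 CPM. Its log2 fold change was 3.01 ± 0.36 at P0 and 5.31 ± 0.40 at 4 weeks. Cd274, encoding PD-L1, was at 149.7, 257 and 320 CPM in cTEC at P0 and 187.04, 257 and 335 CPM at 4 weeks. The mTEC libraries lay below at 46.8, 52.6 and 78.9 CPM at P0 and 75.9, 100.3 and 126 CPM at 4 weeks, and the log2 fold change was 1.98 ± 0.21 and 1.26 ± 0.20 (adjusted p = 9.0e-06 at 4 weeks).

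Slc46a2, the membrane transporter, was at 803, 989 and 1124 CPM in cTEC at P0 and 510, 742 and 817 CPM at 4 weeks, against 141.6, 157.8 and 259.5 CPM and 77.4, 104.2 and 190.5 CPM in mTEC. Its log2 fold change was nearly the same at both ages, 2.44 ± 0.25 and 2.49 ± 0.25. Tbata was at 1576, 1910 and 2356 CPM in cTEC at P0 and 4087, 5775 and 7479 CPM at 4 weeks, against 392.4, 456 and 693 CPM and 303, 669 and 736 CPM in mTEC. The log2 fold change of Tbata was 1.93 ± 0.18 at P0 and 3.17 ± 0.19 at 4 weeks, and its mTEC libraries overlapped between the ages. When the edgeR fit was run over all 84 bulk libraries in place of the TEC libraries, 4 of 7 genes passed at P0 (not Slc46a2, Cd274 or Tbata, adjusted p = 0.063, 0.10 and 0.10). At 4 weeks 5 of 7 passed (not Slc46a2 or Cd274, adjusted p = 0.058 and 0.34). Of 19969 genes in that fit, 1103 were higher and 5241 lower in cTEC at P0, and 1656 higher and 4640 lower at 4 weeks. These 84 libraries include the small gp38+CD26+ library at 4 weeks, and the fit over them was not run without it. That fit had its own filter on low counts and its own TMM factors, so more than the spread differed from the main fit.

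**Figure D1:**
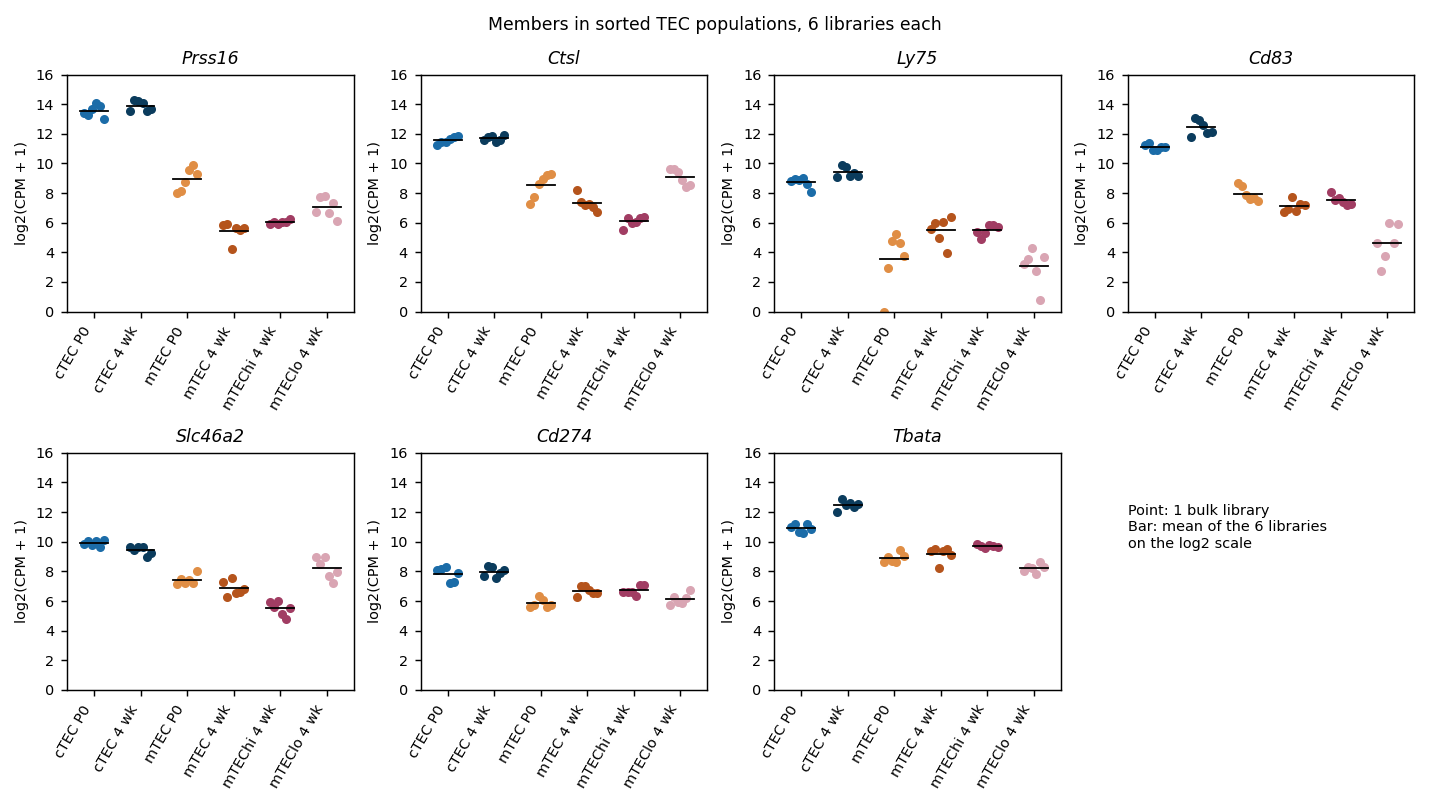
Level of each of the 7 genes as log2(CPM + 1) (vertical axis, 1 panel a gene) in the 6 bulk libraries (points) of each of 6 TEC groups (horizontal axis). In every panel the cTEC libraries of both ages lie above the mTEC libraries of the same age, and Ly75, Cd83 and Tbata lie higher in mTEChi than in mTEClo without overlap, while Ctsl and Slc46a2 lie lower.

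The other cortical genes moved with the 7. All 8 of Psmb11, Ccl25, Dll4, Foxn1, Enpep, Cxcl12, Kitl and Il7 were higher in cTEC at both ages, with log2 fold changes of 4.46 at P0 and 8.10 at 4 weeks for Psmb11, the thymoproteasome subunit, and 4.43 and 5.71 for the chemokine Cxcl12. Enpep encodes Ly51, which was in the sorting panel, so its difference may be set by the sort. The relatives of the 7 genes mostly did not share their direction. Of 21 lysosomal proteases and partners, 4 were higher and 12 lower in cTEC at P0, and 4 were higher and 11 lower at 4 weeks, among them Ctsh (cathepsin H, -6.40 and -5.52) and, at 4 weeks, Ctss (cathepsin S, -5.08), the protease that trims the invariant chain in most other antigen-presenting cells. Cathepsin L was thus higher in cTEC while cathepsin S was lower. Of 11 MHC class II presentation genes tested, 0 were higher and 7 lower at P0, and 1 was higher and 8 lower at 4 weeks, including H2-Ob (-2.82), H2-Oa (-2.24) and H2-Aa (-1.48). Of 6 relatives of Cd274 in the B7 family, 4 were lower in cTEC at each age and 0 higher, among them Pdcd1lg2 (PD-L2) at -1.81 at P0. The mannose receptor Mrc1, a relative of Ly75, was lower (-5.33 at P0 and -3.61 at 4 weeks), and the proton-coupled folate transporter Slc46a1, a relative of Slc46a2, was higher (2.32 and 1.28). Markers of dendritic cells and macrophages summed to 284 to 374 CPM in mTEC at P0 and 404 to 607 CPM at 4 weeks, against 1.36 to 9.09 and 8.00 to 23.0 CPM in cTEC (Itgax, Flt3, Xcr1 and Adgre1 at 0 in cTEC at P0). At P0, 4 of 11 thymocyte, 3 of 3 B cell, 3 of 3 endothelial, 3 of 4 mural and 3 of 5 fibroblast markers were lower in cTEC. At 4 weeks, 11 of 11 thymocyte and 1 of 5 fibroblast markers were higher, and 3 of 3 B cell and 1 of 4 mural markers lower. The part of these cells in the values of cTEC over mTEC was not tested.

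With age the 2 lineages moved apart for 4 of the 7 genes. In cTEC, Tbata and Cd83 were higher at 4 weeks than at P0, and in mTEC Prss16 and Ctsl were lower and Cd274 was higher. Of all genes tested, 10.1% were higher and 4.00% lower at 4 weeks in cTEC, and 3.72% higher and 2.83% lower in mTEC. In cTEC the log2 fold change with age was 1.63 ± 0.18 for Tbata (edgeR, adjusted p = 3.6e-08) and 1.48 ± 0.34 for Cd83 (0.0029). The 6 libraries of each age did not overlap for these genes (5.06% of all genes did not overlap as higher and 4.60% as lower), nor for Ly75, whose change of 0.75 ± 0.54 did not pass (adjusted p = 0.44). Prss16, Ctsl and Cd274 had changes of 0.37, 0.16 and 0.19 and Slc46a2 of -0.42 ± 0.24 (adjusted p = 0.28). Fitted on the cTEC libraries alone, Ly75 (0.0084) and Slc46a2 (0.036) also passed, where 1600 of 13037 genes were higher and 1302 lower. In the fit over all 84 libraries neither Tbata (0.26) nor Cd83 (0.43) passed, where 1463 of 19969 genes were higher and 441 lower. Thymocyte markers summed to 26.5 to 56.99 CPM in cTEC at P0 and 563 to 2532 CPM at 4 weeks, all 11 of them higher. Medullary TEC markers went from 360 to 698 CPM at P0 to 1246 to 6608 CPM (5 of 10 higher), fibroblast markers from 15.6 to 128 CPM to 355 to 2786 CPM (3 of 5), mural markers from 40.4 to 121 CPM to 166 to 782 CPM (4 of 4) and endothelial markers from 0 to 0.969 CPM to 8.86 to 62.6 CPM (3 of 3). The part of these cells in the changes of Tbata and Cd83 was not tested.

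In mTEC, Prss16 fell by 3.49 on the log2 scale with age (SE 0.32, edgeR, adjusted p = 5.4e-09), and its lowest library at P0, 259 CPM, lay above the highest at 4 weeks, 58.5 CPM (2.94% of all genes did not overlap as higher at 4 weeks and 3.40% as lower). Ctsl fell by 1.25 (SE 0.27, adjusted p = 0.0026) and Cd274 rose by 0.91 (SE 0.20, adjusted p = 0.0037), each with overlapping libraries. Ly75 (1.61 ± 0.56, adjusted p = 0.077), Cd83 (-0.83 ± 0.34), Slc46a2 (-0.47) and Tbata (0.40) did not pass. In the fit over all 84 libraries Ctsl passed, and Prss16 (0.11) and Cd274 (0.77) did not. Of 19969 genes in that fit, 366 were higher and 308 lower at 4 weeks. The test of the difference between the lineages' age effects (an interaction term, which 3.54% of genes passed as higher and 1.24% as lower) was passed by Prss16 (3.86 ± 0.43, adjusted p = 2.7e-07), Cd83 (2.30 ± 0.48), Ctsl (1.41 ± 0.37) and Tbata (1.24 ± 0.25), each with the larger value in cTEC. Cd274 (-0.72 ± 0.28, adjusted p = 0.16), Ly75 (-0.86) and Slc46a2 (0.04) did not pass. Among the other cortical genes, Psmb11 (3.64) and the chemokine Ccl25 (1.198) passed in the same direction, and none of the 8 passed in the other. Markers of other cells passed in that direction too, with 4 of 10 for medullary TEC, 9 of 11 for thymocytes, 2 of 5 for fibroblasts, 2 of 4 for mural cells, 1 of 3 for endothelium and 1 of 10 for dendritic cells and macrophages, and their part in the values of the 4 genes was not tested. No interaction passed with the spread of all 84 libraries, and within the libraries of 1 label prefix (TXCK or DFCK, whose meaning is not stated) 2 and 1 of the 7 genes passed, all in the same direction as before.

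**Figure D2:**
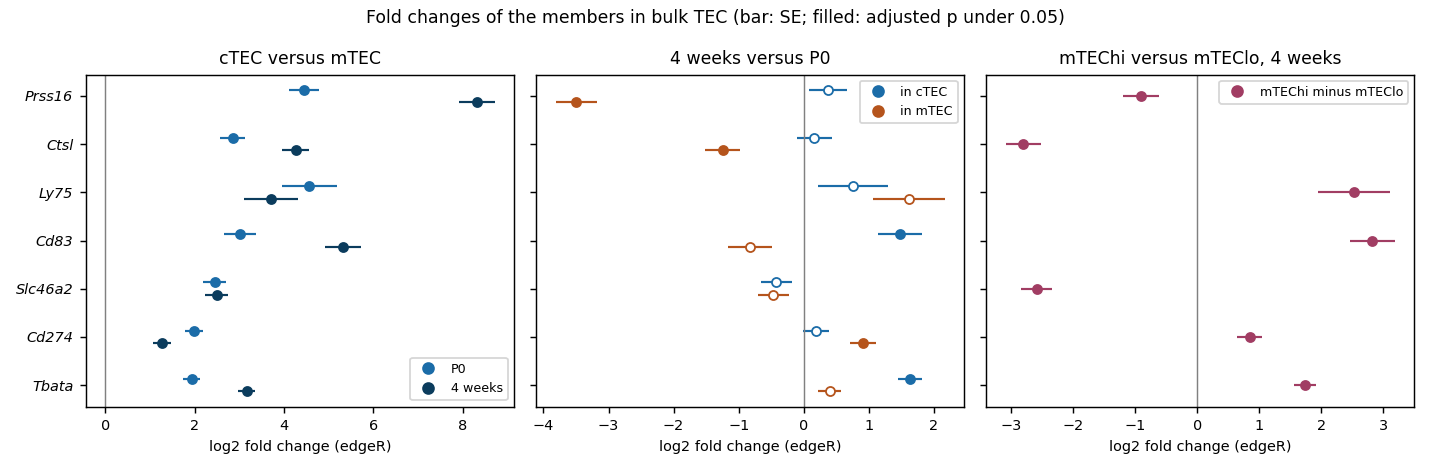
edgeR log2 fold change (horizontal axis, bars show 1 SE, n = 6 libraries per group) of the 7 genes in cTEC over mTEC at P0 and 4 weeks (left), 4 weeks over P0 in cTEC and in mTEC (middle) and mTEChi over mTEClo (right). Filled points passed an adjusted p under 0.05. Prss16 has the largest value at 4 weeks in the left panel, 8.32, and the most negative in mTEC in the middle panel, -3.49.

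Within the medulla at 4 weeks, the 7 genes did not move together. Cd83, Ly75, Tbata and Cd274 were higher in mTEChi, and Ctsl, Slc46a2 and Prss16 were higher in mTEClo (17.9% of all genes tested were higher and 5.80% lower in mTEChi). Cd83 was at 143.3, 177.02 and 263 CPM in mTEChi and 5.6, 24.1 and 62.8 CPM in mTEClo, a log2 fold change of 2.83 ± 0.36. Ly75 was at 28.7, 45.9 and 55.3 CPM against 0.7, 9.6 and 18.8 CPM (2.53 ± 0.58, edgeR, adjusted p = 0.0016). Tbata was at 762, 834 and 902 CPM against 229, 301 and 396 CPM (1.74 ± 0.18). The libraries did not overlap for Cd83, Ly75 and Tbata, as for 9.91% of all genes higher in mTEChi, while 4.58% were lower without overlap. For Cd274 the libraries overlapped, at 79.6, 96.3 and 137.2 CPM against 51.9, 65.7 and 108.5 CPM (0.85 ± 0.20, adjusted p = 0.0023). In the other direction, Ctsl was at 43.6, 72.5 and 81.8 CPM in mTEChi and 344, 585 and 786 CPM in mTEClo (-2.81 ± 0.28), and Slc46a2 at 27.0, 46.6 and 62.6 CPM against 149.5, 304 and 507 CPM (-2.59 ± 0.26), both without overlap. Prss16 overlapped, at 58.03, 64.1 and 76.6 CPM against 69.96, 132.5 and 226 CPM (-0.91 ± 0.29, adjusted p = 0.022). In the fit over all 84 libraries only Cd83 and Ctsl of the 7 passed, where 2940 of 19969 genes were higher and 771 lower in mTEChi. The other cortical genes were split too, Ccl25 (3.02) and Kitl (0.97) being higher and Cxcl12 (-2.51) and Il7 (-1.73) lower in mTEChi. Of the lysosomal proteases 10 of 21 and of the MHC class II genes 9 of 11 were higher in mTEChi, and 0 lower. MHC class II was in the staining panel, so the latter may be set by the sort. Dendritic cell and macrophage markers summed to 535 to 707 CPM in mTEChi and 42.8 to 311 CPM in mTEClo. B cell markers summed to 10.2 to 27.3 CPM and 0 to 0.847 CPM (3 of 3 higher in mTEChi). Of thymocyte markers 5 of 11 were higher, while 1 of 5 fibroblast and 1 of 4 mural markers were lower. The part of these cells in the values of the 7 genes was not tested.

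Over the 14 sorted populations and ages, cTEC at 4 weeks and cTEC at P0 took the first 2 places for 7 of the 7 genes. Outside TEC, Prss16 was at a mean of 448 ± 378 CPM (SD, n = 6) in the Ly51+gp38- sort at 4 weeks, where Cd83 was at 279 CPM and Tbata at 280 CPM, and at 0 to 72.5 CPM in the remaining gp38+CD26+ libraries at 4 weeks. The same Ly51+gp38- libraries held 275 to 1209 CPM of 4 markers of all TEC (7.43 to 194 CPM at P0), 205 to 1234 CPM of the cortical markers (42.5 to 89.0 CPM at P0) and 96.8 to 442 CPM of thymocyte markers (5.47 to 29.96 CPM at P0), whose part in these values was not tested. Ctsl was the member with the widest nonepithelial expression, at a mean of 135.1 CPM in gp38+CD26- fibroblasts at P0 and 492 CPM at 4 weeks, the latter above its mean of 166 CPM in mTEC at 4 weeks. In the CD31 sort of endothelial cells, Cd274 had a mean of 3.8 CPM at P0 and 48.9 ± 17.1 CPM at 4 weeks. By the correlation of log2(mean CPM + 1) over the 14 groups without the small library, the genes most like Prss16 were Eefsec (r = 0.96) and Psmb11 (0.94), the gene most like Cd83 was Cyp26b1 (0.96), the gene most like Slc46a2 was Trim29 (0.99) and the gene most like Ly75 was Oma1 (0.98). Tbata was most like Ccl25 and Crip3, and Cd274 most like Tpd52 (0.96) and H2-DMb1 (0.95). With the small library included the genes nearest Prss16 were Cd83 and Psmb11 (both 0.94). These are descriptions over groups that share sorts, and between the members themselves r ranged from 0.54 to 0.94.

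**Figure D3:**
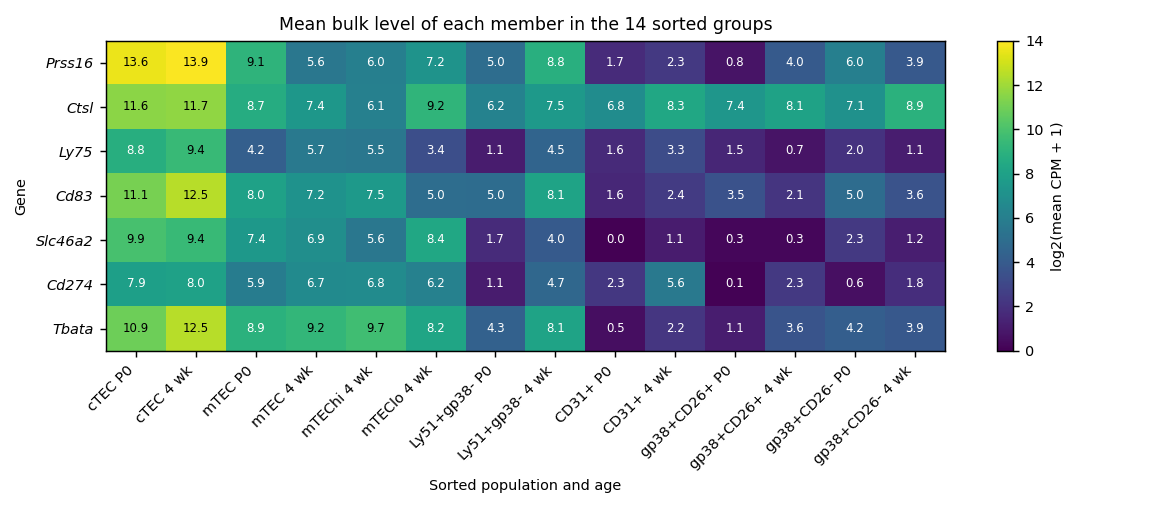
Heat map of log2(mean CPM + 1) of the 7 genes (one axis) in the 14 bulk populations and ages (other axis), 6 libraries a group, with the small gp38+CD26+ library left out. The cTEC columns are highest for every gene, and Ctsl is the gene with clear levels in fibroblast groups, with a mean of 492 CPM in gp38+CD26- cells at 4 weeks.

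In the newborn single-cell set the epithelium was labelled by the authors, with 4826 PcTEC (perinatal cTEC), 1649 McTEC (mature cTEC), 1166 ItTEC (intertypical TEC) and 518 MmTEC (mature mTEC). The 7 genes were higher in PcTEC than in ItTEC in 6 of 6 libraries each, and between the 2 cortical types they split. Prss16 and Tbata were higher in McTEC in 6 of 6 libraries, Ctsl, Ly75 and Cd83 in 5 of 6, and Slc46a2 and Cd274 in 0 of 6. These comparisons carry no test, because the cell labels were made from the same transcripts. The 5 cortical markers summed to 1465 to 2944 CPM in PcTEC, 2552 to 4797 CPM in McTEC and 429 to 1046 CPM in ItTEC, and medullary markers to 346 to 645 CPM in PcTEC and 2734 to 8695 CPM in ItTEC, which is no independent check of labels made from these transcripts.

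Prss16 was at 2510, 2150 and 2108 CPM in PcTEC of the Tbx1+/-Crkl+/- libraries and 2351, 2259 and 2486 CPM of the WT libraries. In McTEC it was at 3312, 2461 and 2363 CPM and 2836, 3210 and 2680 CPM, and in ItTEC at 688, 946 and 541 CPM and 309, 839 and 1059 CPM. Every ItTEC library thus lay below every cortical library, with a mean over 6 libraries of 730 ± 276 CPM against 2311 ± 168.1 CPM in PcTEC and 208 ± 101.4 CPM in MmTEC. Tbata showed the widest step between the cortical types, at 1186, 1672 and 931 CPM (Tbx1+/-Crkl+/-) and 1177, 1705 and 1644 CPM (WT) in PcTEC, and 2189, 2692 and 1430 CPM and 2388, 3334 and 2881 CPM in McTEC. The ratio of McTEC to PcTEC for Tbata had a median of 1.80 (range 1.54 to 2.03). Cd274 went the other way, at 451, 278 and 661 CPM and 532, 448 and 381 CPM in PcTEC and 336, 164.7 and 351 CPM and 342, 282 and 212 CPM in McTEC. Its ratio had a median of 0.612 (range 0.531 to 0.745), and its 2 groups of libraries overlapped while the order held within every library.

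Ctsl had means of 18847 CPM in PcTEC, 19672 CPM in McTEC, 12268 CPM in ItTEC and 2155 CPM in MmTEC, so ItTEC kept more of its cortical level for Ctsl than for Prss16. Ly75 had means of 369, 449, 104 and 30.5 CPM in the same order. Cd83 was at 176, 166.9 and 114 CPM (Tbx1+/-Crkl+/-) and 153, 258 and 288 CPM (WT) in PcTEC, 167.8, 186 and 142 CPM and 180, 305 and 313 CPM in McTEC, and 0, 66.7 and 16.04 CPM and 0, 24.2 and 50.4 CPM in ItTEC. Cd83 was the only member with a mean lower in ItTEC (26.2 CPM) than in MmTEC (66.6 CPM). Slc46a2 had means of 901, 801, 659 and 203 CPM and the shallowest fall from PcTEC to ItTEC. The median ratio of McTEC to PcTEC was 1.18 for Prss16, 1.26 for Ly75, 1.15 for Cd83, 1.02 for Ctsl and 0.896 for Slc46a2. In Thy cells the means were 4988 CPM for Ctsl, 72.9 for Ly75, 54.6 for Cd83 and 245 for Slc46a2. In pooled NETS they were 1934, 15.4, 18.2 and 66.8 CPM in the same order of genes.

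**Figure D4:**
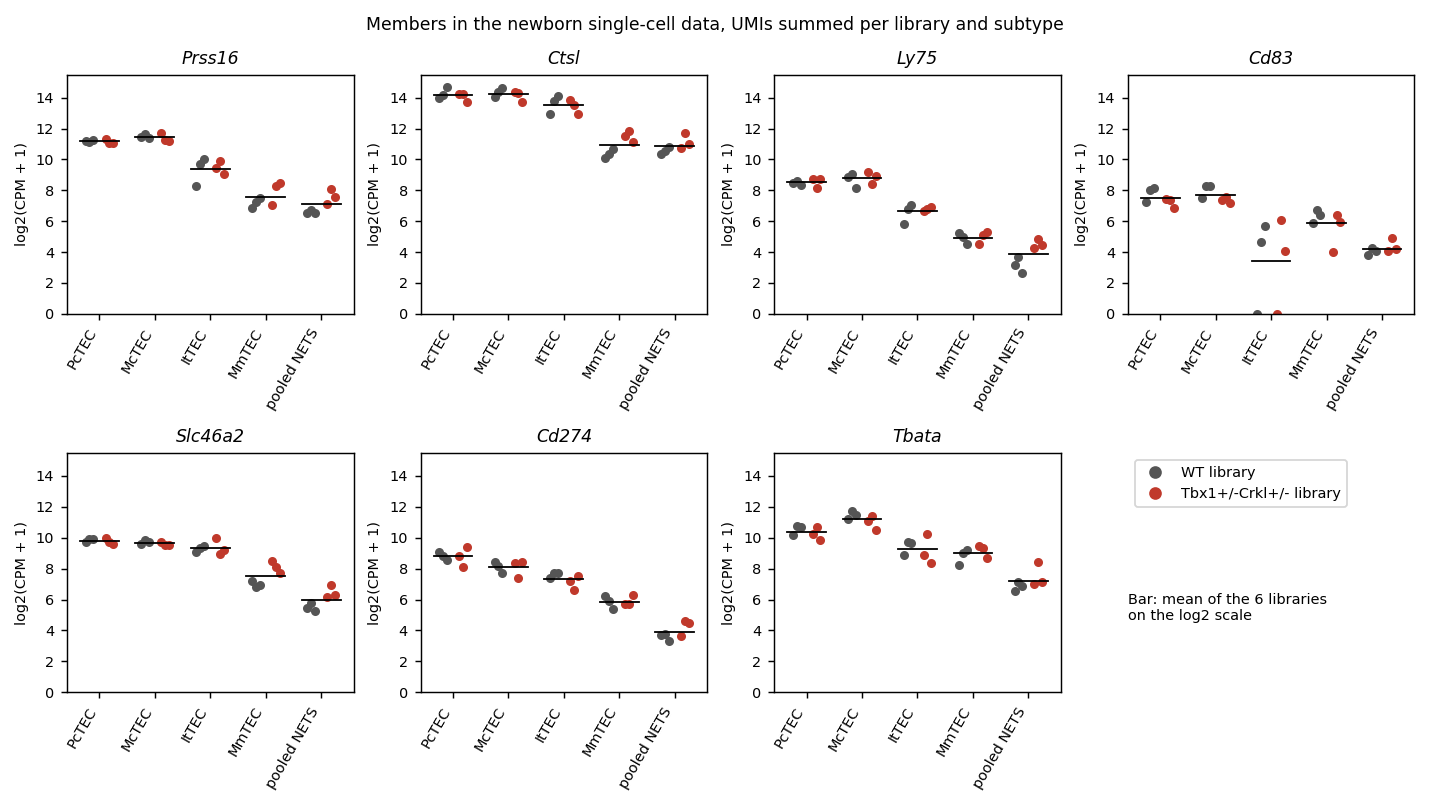
Level of each gene as log2(CPM + 1) (vertical axis, 1 panel a gene) in summed cells of PcTEC, McTEC, ItTEC, MmTEC and pooled NETS (horizontal axis), 1 point a library, coloured by genotype (3 Tbx1+/-Crkl+/- and 3 WT). PcTEC lies above ItTEC for all 7 genes, and Cd274 and Slc46a2 are lower in McTEC than in PcTEC in each library while Tbata and Prss16 are higher.

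Thinned to 2000 UMIs a cell, which left out 3265 Tbx1+/-Crkl+/- and 1702 WT cells of lower depth, Prss16 was read in 90.7% of PcTEC, 93.6% of McTEC, 66.2% of ItTEC and 27.0% of MmTEC. Tbata was read in 70.7%, 91.7%, 57.4% and 48.6% in the same order, and Slc46a2 in 77.9%, 72.8%, 59.97% and 25.1%. Ly75 (45.6%, 47.5%, 18.7% and 4.69%), Cd274 (44.8%, 33.8%, 24.2% and 9.62%) and Cd83 (26.4%, 31.7%, 5.98% and 11.7%) were read in fewer cells, and Ctsl in nearly all cortical cells. The mean number of the 7 genes read in a cell was 4.56 in PcTEC, 4.71 in McTEC and 3.32 in ItTEC. It was 2.14 in MmTEC, 2.60 in Thy cells (2.08 to 3.57 over libraries) and 1.57 in pooled NETS. The percentages are shares of cells with a UMI, and the shares of NETS cells with the same genes are given below.

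The compound heterozygous genotype was tested on summed counts of each subtype, and 0 of the 7 genes passed in PcTEC, McTEC or ItTEC, where 0% of all genes did (edgeR). At an unadjusted p under 0.05, 877 of 11954 genes were counted in PcTEC, 463 of 8686 in McTEC and 217 of 7190 in ItTEC, and DESeq2 called 1, 0 and 1 genes. Cd83 had the smallest adjusted p of the 7 in both cortical types, with a log2 fold change of -0.68 ± 0.29 in PcTEC (edgeR, adjusted p = 0.64) and -0.72 ± 0.31 in McTEC (edgeR, adjusted p = 0.83) and 0.35 ± 0.62 in ItTEC. In both cortical types the 3 Tbx1+/-Crkl+/- libraries overlapped the WT libraries for Cd83. Over all cells the median depth was 2551, 2391 and 2506 UMIs in the Tbx1+/-Crkl+/- libraries and 2577, 3631 and 4686 UMIs in the WT libraries. The part of depth in the Cd83 values was not tested. The other 6 genes had values of -0.30 to 0.03 in PcTEC (SE 0.24 to 0.38) and -0.45 to 0.17 in McTEC (SE 0.32 to 0.51), and the sign of 2 and 3 of them changed with a setting.

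Outside the epithelium, transcripts of the 7 genes were also read in NETS cells of the newborn set. In each library the level in pooled NETS was set against that in PcTEC and McTEC together. It was 3.58% to 12.1% (median 4.84%, 6 libraries) for Prss16, 1.67% to 9.63% (3.45%) for Ly75, 3.87% to 14.8% (6.32%) for Slc46a2 and 2.41% to 9.06% (2.80%) for Cd274. Ctsl (6.79% to 17.0%, median 8.38%), Cd83 (5.37% to 17.2%, 8.51%) and Tbata (6.11% to 18.2%, 8.28%) had higher medians. Among the 5 cortical markers, Psmb11 was at 4.14% to 17.7%, Foxn1 at 2.55% to 11.3% and Ccl25 at 5.83% to 18.5%, while Dll4 (10.5% to 68.5%, median 21.6%) and Enpep (15.6% to 27.9%, median 19.1%) were higher. All 7 genes had their highest share in the same library, Tbx1+/-Crkl+/- replicate 2.

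The same cell class from the EpCAM- sort at P0, where few epithelial cells were loaded, was at far lower levels. Prss16 was at 90.6 to 106 CPM in NETS of the 3 newborn WT libraries and 1.08 to 2.63 CPM in the 2 EpCAM- libraries, a ratio of means of 51.7. Tbata was at 93.01 to 141 CPM against 1.75 to 5.69 CPM (31.5), Slc46a2 at 36.8 to 52.6 CPM against 1.42 to 1.62 CPM (29.0) and Ly75 at 5.32 to 11.96 CPM against 0.118 to 0.727 CPM (19.9). Ratios were smaller for Cd274 (7.02), Cd83 (4.02) and Ctsl (2.45, at 1288 to 1757 CPM against 552 to 691 CPM). No library of one set overlapped the other for any of the 7, which was so for 47.6% of 13398 genes as higher in newborn WT and 16.8% as lower. For the 8 other cortical genes the ratio was 64.3 for Foxn1, 25.5 for Psmb11, 23.5 for Il7, 7.88 for Ccl25, 1.45 for Dll4, 1.24 for Kitl, 1.21 for Enpep and 1.10 for Cxcl12. The 2 sets also differ in fixation, sort and depth, which cannot be told apart from the epithelium present, and no test was made between them.

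**Figure D5:**
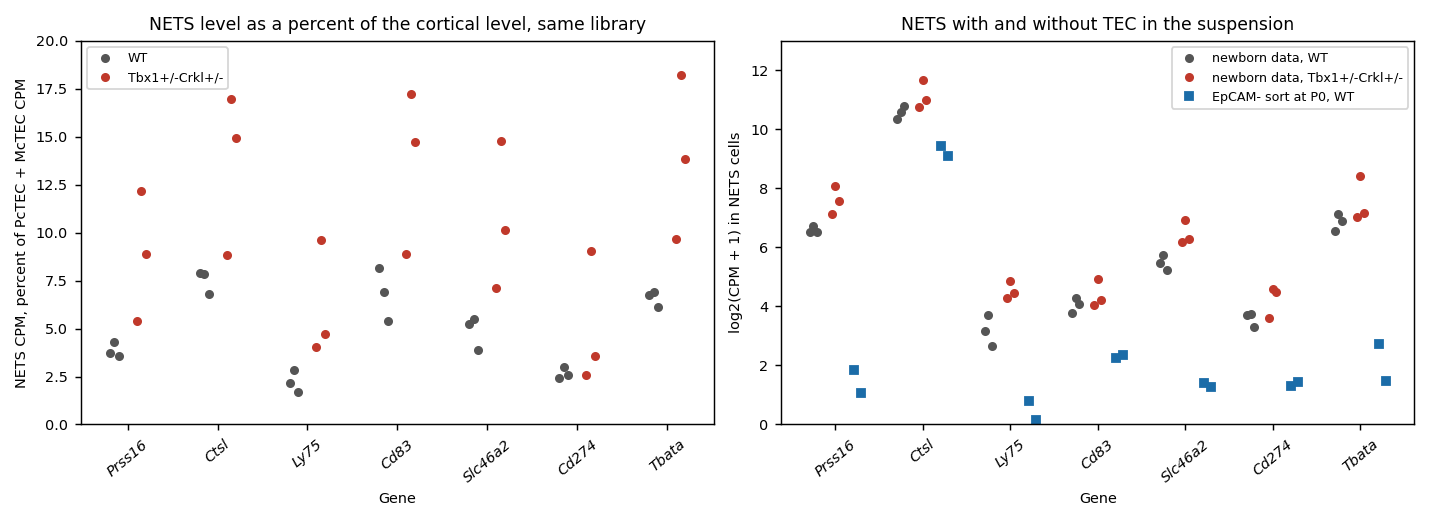
Left, level of each gene in pooled NETS as a percent of its level in PcTEC and McTEC together, by newborn library and genotype. Right, log2(CPM + 1) in NETS of newborn WT, newborn Tbx1+/-Crkl+/- and EpCAM--sorted P0 libraries. Prss16 spans 3.58% to 12.1% on the left, and on the right falls from 90.6 to 106 CPM in newborn WT to 1.08 to 2.63 CPM in the EpCAM- sort.

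In single cells thinned to 2000 UMIs, Prss16 was read in 20.9% of newborn NETS cells and 0.39% of EpCAM- NETS cells at P0, Tbata in 24.5% and 0.73%, Slc46a2 in 11.1% and 0.32%, and Ctsl in 92.3% and 60.2%. Ly75 (2.40%, 0.07%), Cd274 (2.39%, 0.33%) and Cd83 (3.30%, 0.61%) were read in fewer. The median depth of the kept cells before thinning was 3547 UMIs in NETS and 3815 UMIs in PcTEC. In both cortical and NETS cells the ratio of each gene's counts to those of Prss16 can be read: for Tbata it was 0.649 in PcTEC, 0.983 in McTEC and 1.16 in pooled NETS (0.948 to 1.31 over 14 NETS labels), for Ly75 0.152, 0.142 and 0.094, and for Slc46a2 0.395, 0.296 and 0.441. Ctsl had ratios of 8.87, 7.87 and 14.3, with 9.68 to 32.5 over the labels, and Cd274 of 0.181, 0.090 and 0.100. Over 16 NETS labels of 100 or more cells, Prss16 ranged from 87.9 CPM in CapFb4, a capsular fibroblast, to 317 CPM in EnA, an endothelial label, which was highest for 7 of the 7 genes.

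In pooled NETS, 6 of the 7 genes had higher means in the Tbx1+/-Crkl+/- libraries with fold changes above 0.5 on the log2 scale (8.92% of all genes), none passing edgeR's adjusted threshold in the main fit (0% of 13398 genes passed, 1147 had an unadjusted p under 0.05, and DESeq2 called 20). With no filter on low counts edgeR called 3 of the 7, with 117 of 20198 genes higher and 33 lower. With the replicate block it called 1 of the 7, with 14 of 13398 genes higher and 3 lower. Prss16 was at 141, 268 and 191.3 CPM in Tbx1+/-Crkl+/- and 91.2, 106 and 90.6 CPM in WT (0.997 ± 0.23, adjusted p = 0.27, edgeR). Ly75 was at 18.4, 28.2 and 20.7 CPM against 8.0, 11.96 and 5.3 CPM (1.41 ± 0.28, edgeR, adjusted p = 0.24), and Slc46a2 at 71.6, 121 and 76.4 CPM against 42.9, 52.6 and 36.8 CPM (0.97 ± 0.22, adjusted p = 0.27). The libraries of the genotypes did not overlap for these 3 genes, as for 6.96% of all genes higher in Tbx1+/-Crkl+/-, and DESeq2 called the 3. Cd274 (0.75), Tbata (0.73), Ctsl (0.54) and Cd83 (0.36) had smaller values. Without Tbx1+/-Crkl+/- replicate 2, 4 of the 7 stayed above 0.5, namely Ly75 (1.18), Prss16 (0.71), Slc46a2 (0.67) and Cd274 (0.55), while Ctsl was at 0.20, Tbata at 0.11 and Cd83 at -0.02. PcTEC and McTEC held 41.9%, 35.3% and 33.7% of the UMIs in the Tbx1+/-Crkl+/- libraries and 22.3%, 34.5% and 29.0% in the WT libraries. The median depth of a NETS cell was 2427, 2530 and 2402 UMIs in Tbx1+/-Crkl+/- and 2530.5, 3539 and 5133 UMIs in WT. The part of this share and of depth in the NETS values was not tested. Median log2 fold changes in the same NETS sums were 0.77 for 4 markers of all TEC, 0.69 for 5 cortical and 0.66 for 8 medullary markers and 0.81 for 10 MHC class II genes, with 0 of them called, against 0.75 for the 7 genes and -0.02 over all genes.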

How the data were processed

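Single-cell UMIs were counted by the authors (Cell Ranger 3.1.0), who state a minimum of 1000 genes a cell and a limit on mitochondrial share, removed doublets and contaminating clusters, and labelled the cells. The lowest number of genes in a cell was 876 to 901 in the newborn libraries, below that minimum, and 999 to 1021 in the age series. The authors aligned bulk reads with STAR 2.5.3a and counted genes with HTSeq, per the submitters' processing notes (mm10). All deposited values used here are raw counts. Genes of the bulk table are Ensembl rows, of which 98 non-gene rows, holding 7.81% to 29.4% of counts, were left out. The members and gene lists were chosen with earlier results of these data known.

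Bulk groups were compared with edgeR 4.0.16 (quasi-likelihood test, TMM, Benjamini-Hochberg adjustment over all genes tested) in 1 fit over the 36 TEC libraries. Sample numbers in the titles run in parallel across the populations of an age. Whether libraries of different populations came from the same mice is not stated, and the fit treats them as independent. Genotypes were compared by edgeR on counts summed per library and subtype. A change was called at an adjusted p under 0.05. CPM are counts scaled to the total of gene counts, and log2 levels use a pseudocount of 1. Named genes are the 7 members and, by list, up to 4 called genes with the largest fold. Alternatives were RLE factors, DESeq2 1.42.0, no filter, label prefix, left-out libraries and other sets of samples (R 4.3.3; Python 3.11.15). Scripts were tested on simulated counts. The lowest chi-square per degree of freedom between replicates was 5.34, so no library was treated as a duplicate. SE values are from the edgeR fits and SD values are over libraries, so both measure the spread between libraries.
One gene of the likeness search is not reported here.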

Additional observations from a re-analysis of the deposited data

Results flagged for a closer look

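In 24 of 97 groups of 6 bulk libraries the highest or lowest library stood apart from the others (Dixon's ratio above 0.625). Chance passes this limit in about 1 of 20 groups only where the values are normally distributed. Several of the groups hold libraries without a count of the gene, so 24 of 97 cannot be set against that rate. The small gp38+CD26+ library at 4 weeks (25702 counts) accounts for 7 of the 24, 1 for each gene. It held 11478 CPM of Prss16, 4669 of Ctsl, 4241 of Cd83, 5992 of Tbata, 817 of Slc46a2, 350.2 of Ly75 and 38.9 of Cd274.

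In TEC the libraries apart were 1 of Ctsl in mTEC at 4 weeks (291 CPM, the others 103.2 to 171), 1 of Prss16 in mTEC at 4 weeks (17.6 CPM, the others 45.5 to 58.5), 1 of Prss16 in mTEChi (76.6 CPM, the others 58.03 to 64.96) and 1 of Slc46a2 in mTEC at P0 (260 CPM, the others 142 to 174). In the other populations they were Cd274 at 15.9 CPM in CD31 at P0, 2.66 CPM in the gp38+CD26- sort at P0 and 0.280 CPM in its gp38+CD26+ counterpart, Cd83 at 11.7 CPM and 17.6 CPM in CD31 at P0 and 4 weeks, Ctsl at 97.3 CPM (the others 165.4 to 199) in gp38+CD26+ cells at P0, and Ly75 at 5.43 CPM in Ly51+gp38- cells and, in gp38+CD26+ cells, 8.02 CPM at P0. Prss16 was at 10.4 CPM in CD31, 214 CPM in the gp38+CD26- sort (the others 0 to 59.0) and, for gp38+CD26+, 2.72 CPM at P0, and Slc46a2 at 6.46 CPM in CD31 at 4 weeks and 1.18 CPM in gp38+CD26+ cells at P0.

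The age effect differed between cTEC and mTEC by the interaction test for Prss16 (3.86 on the log2 scale), Cd83 (2.30), Ctsl (1.41) and Tbata (1.24).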

How the results depend on the processing

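Of the values that passed the threshold, 211 kept direction and call over the alternatives run and 29 lost the call with the same direction, while of those that did not pass 12 gained the call and 6 changed sign. These counts leave out the genotype values in single subtypes apart from Cd83 in PcTEC and McTEC, of which 2 of 6 in PcTEC, 3 of 6 in McTEC and 5 of 7 in ItTEC changed sign with a setting, none of them called under any alternative. In the fit over all 84 bulk libraries the number of members called was 4 for cTEC over mTEC at P0, 0 for age in cTEC, 1 for age in mTEC, 0 for the interaction and 2 for mTEChi over mTEClo. The counts over all genes in that fit are given above. The small gp38+CD26+ library was among these 84. Age in cTEC gave 4 members with only those groups fitted, and the interaction gave 1 within DFCK and 2 within TXCK. In pooled NETS 3 members passed with DESeq2, 3 with no filter and 1 with the replicate block. The replicate numbers were not taken to pair the newborn libraries. The correlation of same-numbered libraries in pooled NETS was 0.168, -0.030 and -0.459. With 3 libraries a genotype, each set against its genotype mean, these values cannot decide whether libraries were paired. Signs changed for uncalled values of the interaction in Slc46a2 (-0.028 by DESeq2, -0.031 by RLE factors, -0.016 in TXCK) and Ly75 (0.069 in DFCK), of age in cTEC in Cd274 (-0.26 in TXCK), and of genotype in pooled NETS in Cd83 (-0.020 to 0.53 with 1 library left out, lowest without Tbx1+/-Crkl+/- replicate 2). The share of NETS cells with a UMI was, without thinning, 31.7% for Prss16, 97.8% for Ctsl, 3.96% for Ly75, 6.11% for Cd83, 17.0% for Slc46a2, 4.22% for Cd274 and 36.3% for Tbata, and at 1000 UMIs 13.2% for Prss16, 78.5% for Ctsl and 1.94% for Cd83. The cause of the lost calls was not tested. RLE factors moved the median of all genes in cTEC over mTEC at 4 weeks from -0.24 to -0.35.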

Other observations

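In the EpCAM- age series, with 1 library each at E12.5 and E13.5, Cd83 was at 38.5 and 32.1 CPM in NETS, against 2.5 to 2.7 CPM at E16.5, 3.7 to 4.1 CPM at P0 and 1.2 to 2.1 CPM at W4. At E12.5 it was at 60.5 CPM in the fibroblast label CapFb1a (346 UMIs in 442 cells) and 64.4 CPM in CapFb2a, and at 3.37 CPM in the endothelial label EnC. Cd83 was also at 43.1 CPM in pericytes, 34.9 CPM in vascular smooth muscle (VSM) and 33.6 CPM in proliferating cells, and at 2.26 CPM in neural crest cells. At E13.5 CapFb3 had 69.3 CPM and CapFb1a 59.9 CPM, and EnC had 2.13 CPM, while Prss16 was at 0.03 and 0.57 CPM in these 2 libraries. Ctsl in NETS was at 298 CPM at E12.5, 283 at E13.5, 367 to 378 at E16.5, 552 to 691 at P0 and 1446 to 1515 CPM at W4. At W4 it was highest in MedFb2a, a medullary fibroblast label (2409 CPM), and lowest in VSM (368 CPM). Cd274 at W4 was at 41.7 CPM in EnC, 37.2 CPM in EnA and 32.2 CPM in EnVL, and at 11.5 CPM or less in every other label of 20 or more cells.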
